A study of Homo sapiens with 12 samples.

Results

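Coding regions of fewer than 50 codons are among the shortest that annotations hold, and were followed here in disome and monosome footprints after girolline. The deposited tables list 1 coding region per transcript. Rows of a kind of library with identical counts in all its libraries were merged, and a region was kept when its counts summed to at least 20 over the 4 libraries of the kind. This gave 487 of 35970 coding regions with that many counts in the disome tables (1.35%) and 1987 of 56563 in the monosome tables (3.51%). The rule counts treated libraries too, so a region with few DMSO counts can enter through its treated ones.

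The cells were HEK293T Flp-In, derived from human embryonic kidney and carrying a recombination site where transgenes can be placed, and were labelled wild type in every group. They were kept for 2 h in girolline, a compound first isolated from a sponge, at 1 or 10 µM, or in its solvent DMSO alone. Each kind of library (poly(A) RNA-seq, monosome, disome) had 2 DMSO libraries, called DMSO 1 and DMSO 2 below, and 1 library per dose. No label states separate cultures for DMSO 1 and DMSO 2, and the p-values below therefore rest on a spread that may be technical. Monosome libraries held 21570489 to 38074691 counts and disome libraries 3091715 to 5769026. Both DMSO pairs differed by more than sampling noise. Chi-square per degree of freedom was 2.03 over 1469 short monosome regions and 2.1 over 226 short disome regions, those with at least 20 DMSO counts.

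A monosome footprint is the stretch of mRNA protected by a lone ribosome, and a disome footprint is the longer stretch protected when a trailing ribosome has run into a slow or stopped one ahead of it. According to its title, the series concerns girolline as a modulator of eIF5A. This translation factor enters stalled ribosomes, helps peptide bonds form at difficult sequences such as proline stretches, and assists release of the finished protein at stop codons. In a very short coding region, initiation, elongation and termination take place within a small distance, and there is little room for ribosomes to queue. Some such regions encode known small proteins, and many are annotated on truncated or alternative transcripts of longer genes. The tables used here pair no transcript identifier with a gene name, so proteins are not named, and the check of the cell line by its marker genes could not be made.

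Nearly all of the short regions share their neighbourhood with a longer one. In the disome tables, 486 of the 487 regions had a coding region of 50 or more codons within 10 coding rows whose counts were at least as high in all 4 libraries. Merging went by counts alone, wherever the rows lay, and a merged region took the length of its shortest row. By this, 69 regions had counts identical to those of a row of 50 or more codons, which need not lie nearby or overlap. In the monosome tables these numbers were 1984 and 208 of 1987. How often other regions with as few counts have such a neighbour was not counted. Where isoforms overlap, reads cannot be assigned to the short region rather than to the longer one. The disome regions had 2 to 49 codons (median 41) and a median of 46 counts summed over 4 libraries, with a highest sum of 6357. Monosome regions had 11 to 49 codons (median 40), a median of 79 counts and a highest sum of 14857.

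Disomes on these regions moved in both directions at 10 µM, and more of them rose than fell. Of 487 regions, 427 passed the filter on low counts, and of these 140 rose (32.8%) and 36 fell (8.43%) by edgeR's quasi-likelihood test at an FDR of 0.05. Over all coding regions tested, 20.8% rose and 14.9% fell. The median log2 fold change was 2.29 among regions that rose and -1.75 among those that fell. The 60 regions below the filter count as neither. Over all 487, the median log2 difference in CPM (counts scaled to the size of the library, with 2 counts added before the log) between 10 µM and the mean of DMSO was 0.41, with quartiles of -0.46 and 1.43. All coding regions gave 0.01, and DMSO 2 against DMSO 1 gave 0.05 over the short regions, with an SD of 0.65.

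The positive median depended on how regions were chosen. Among the 226 regions with at least 20 DMSO counts, a minimum added after the data had been seen, 54 rose (23.9%) and 35 fell (15.5%), beside 19.5% and 18.2% of all regions with that many DMSO counts. Their median log2 difference was -0.19, against -0.10 over all such regions, so the direction of the median turned. This minimum selects on the DMSO side of the same difference, so neither median is free of selection. The median over all regions also went down under it, from 0.01 to -0.10. DESeq2, which estimates the spread in another way and gives no adjusted p to regions with low mean counts, gave one to 91 of the 427. Of these it called 17 higher (18.7%) and 10 lower (11%), beside 9.31% and 5.22% of all regions with an adjusted p. That mean takes in the treated libraries, so regions that entered through them can be among those called. One region that DESeq2 called higher had 0 and 2 DMSO counts, so these shares are not free of selection either.

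**Figure D1:**
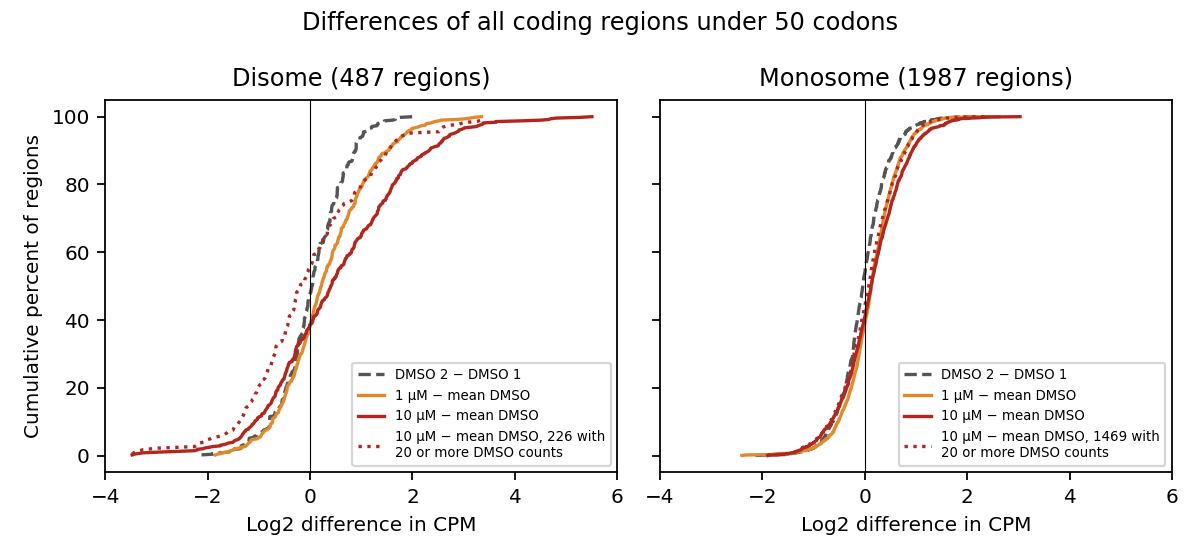
Cumulative percent of coding regions under 50 codons (vertical axis) by log2 difference in CPM (horizontal axis), for DMSO 2 against DMSO 1 and for each dose against the mean of DMSO. The 10 µM disome curve reaches from -3.47 to 5.51 with a median of 0.41, while the dotted curve of the 226 regions with 20 or more DMSO counts has its median at -0.19.

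The regions of 40 to 49 codons made up 272 of the 487 disome regions. Of their 240 tested regions, 82 rose and 17 fell at 10 µM, with a median log2 difference of 0.53 over 272. At 30 to 39 codons 37 of 117 rose and 10 fell, with a median of 0.40 over 133. At 20 to 29 codons 13 of 54 rose and 8 fell, and the median over 65 was 0.07. Below 20 codons 8 of 16 rose and 1 fell, too few regions to set a percentage apart from the others. How a footprint of 2 ribosomes was assigned to so short a region is not given in the sources used here. Counts on such regions may therefore include footprints that reach beyond them. Across the 487 regions, Spearman's rho of coding length and the 10 µM difference was 0.066, a description over regions of the same libraries that partly share reads.

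The next longer class also had more rises than falls. Of 2602 tested regions of 50 to 99 codons, 855 rose (32.9%) and 255 fell (9.8%), with a median log2 difference of 0.35, while 19.7% rose and 15.5% fell among regions of 100 or more codons. No difference between regions under 50 codons and those of 50 to 99 was tested. With at least 20 DMSO counts, 549 of 1685 regions of 50 to 99 codons rose (32.6%) and 251 fell (14.9%), with a median of 0.13. By the same minimum, 37 of 128 regions of 40 to 49 codons rose (28.9%) and 16 fell (12.5%), with a median of -0.03. At 30 to 39 codons 12 of 61 rose and 10 fell, and at 20 to 29 codons 4 of 32 rose and 8 fell. At the length limit itself, the median was 0.66 over 166 regions of 45 to 49 codons and 0.20 over 184 of 50 to 54 codons. At the count limit, it was 0.53 over 129 regions with 15 to 19 summed counts and 0.40 over 73 with 20 to 24.

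**Figure D2:**
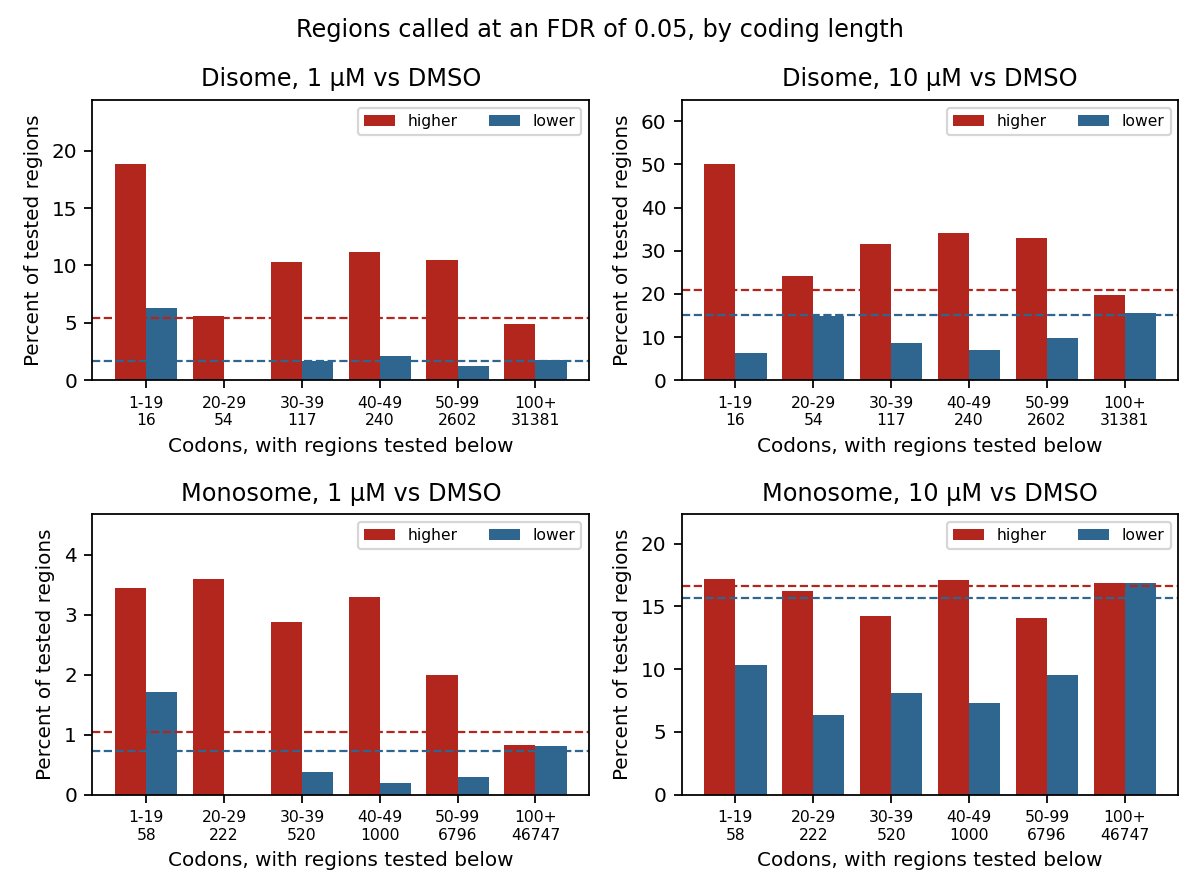
Percent of tested coding regions that were higher (red) or lower (blue) at an FDR of 0.05, by coding length in codons, for disome and monosome libraries at each dose. Dashed lines give the same percent over all regions with at least 20 counts. In disomes at 10 µM, regions of 40 to 49 codons (34.2% higher) and of 50 to 99 codons (32.9%) both lay above the red line.

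The largest disome rises were on regions with very few DMSO footprints, which reach the minimum of 20 counts only through their treated libraries. For such regions a treated value above DMSO is set by the rule, so the values that follow are a description and their p-values no independent support. The region uc058elf.1, of 41 codons, had 0 and 2 disome counts in the DMSO libraries, then 23 at 1 µM and 145 at 10 µM. Both treated libraries lay above both controls, and the log2 fold change was 6.65 at 10 µM (SE 0.48, edgeR adjusted p = 6.86e-41) and 4.25 at 1 µM (adjusted p = 7.86e-07). The step from 1 to 10 µM was also past the test (log2 fold change 2.39, adjusted p = 5.06e-10). In RNA-seq the same region had 14 and 19 counts in the DMSO libraries, then 26 at 1 µM and 15 at 10 µM, which left its RNA log2 fold change at 10 µM at 0.21 (edgeR adjusted p = 0.948), so the disome counts changed on an mRNA level for which no change was called. A region of 44 codons that lies 6 coding rows away had 0, 4, 25 and 150 disome counts in the same order of libraries and may share its reads.

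Other regions entered in the same way. A region of 37 codons had 1 disome count in each DMSO library, 30 at 1 µM and 83 at 10 µM (log2 fold change 5.84, SE 0.55, edgeR adjusted p = 4.53e-24). A region of 46 codons had 0, 2, 14 and 80 counts. A region of 20 codons had no count in either DMSO library, 4 at 1 µM and 27 at 10 µM, which is at least 5.07-fold higher at 10 µM against a floor of 3 counts per library. A region of 35 codons, with counts identical to those of one of 42 codons, had 0, 0, 7 and 15, at least 2.82-fold higher.

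Falls were found on regions with few and with many footprints. The region uc061qzr.1, of 48 codons, had 142 and 213 disome counts in the DMSO libraries, then 76 at 1 µM and 21 at 10 µM. Its CPM went from 53.1 and 46.2 with DMSO to 19.2 and then 4.43, with no overlap between treated and control libraries. The log2 fold change was -3.47 at 10 µM (SE 0.32, edgeR adjusted p = 9.99e-25) and -1.36 at 1 µM (adjusted p = 1.19e-05). Its RNA counts were 289 and 518 in the DMSO libraries, then 448 at 1 µM and 156 at 10 µM, and also fell at 10 µM (log2 fold change -1.0, SE 0.25, edgeR adjusted p = 0.00973).

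A region 8 coding rows away went the other way in disomes. The region uc061qzk.1, of 49 codons, had 30 and 38 disome counts in the DMSO libraries, then 103 at 1 µM and 307 at 10 µM. Its disome log2 fold change was 2.77 at 10 µM (SE 0.25, edgeR adjusted p = 1.61e-26) and 1.46 at 1 µM (adjusted p = 3.47e-05). In RNA-seq uc061qzk.1 had 66, 61, 82 and 9 counts in the order DMSO 1, DMSO 2, 1 µM and 10 µM, a fall of the log2 level by 2.47 (edgeR adjusted p = 0.00025). The disome rise therefore stood on an mRNA count that fell, and the files used here do not say whether both rows belong to 1 gene. This pair was singled out after its values had been seen. When short regions within 10 rows of each other were taken as runs, 77 disome runs held more than 1 region, and 4 of them held both a rise and a fall at 10 µM. In monosomes 7 of 420 such runs did. How often runs of longer regions hold both was not counted.

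The lowest disome fold changes among regions called at 10 µM were on regions at 0 counts there. A region of 33 codons had 11, 27, 9 and 0 disome counts in the order DMSO 1, DMSO 2, 1 µM and 10 µM, at least 6.5-fold lower at 10 µM by the same floor. One of 36 codons had 15, 15, 13 and 0 (at least 5.15-fold lower), and one of 41 codons 7, 11, 3 and 0 (at least 3.78-fold lower). A region of 17 codons had 45, 100, 26 and 6 counts, a log2 fold change of -3.93 (SE 0.44, edgeR adjusted p = 2.87e-17), and one of 37 codons 39, 55, 22 and 6. The 1 µM counts of these last regions lay between the DMSO and 10 µM counts.

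The 8 regions with the highest mean disome CPM did not move together. The most occupied, of 34 codons, had 903 and 1786 counts in the DMSO libraries, then 2013 at 1 µM and 1655 at 10 µM. Its CPM was 337 and 388, then 507 and 349, so that 10 µM fell between the controls (log2 fold change -0.06, SE 0.15, edgeR adjusted p = 0.79) while 1 µM lay above both (log2 fold change 0.48, adjusted p = 0.0189).

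The second, uc057ysr.1, of 43 codons, had 914, 1668, 1379 and 635 disome counts in the order DMSO 1, DMSO 2, 1 µM and 10 µM. In CPM it stood at 342, 362 and 348 and then fell to 134, with a log2 fold change of -1.40 at 10 µM (SE 0.17, edgeR adjusted p = 4.13e-15) and -0.02 at 1 µM. The fall lay in the step from 1 to 10 µM (log2 fold change -1.38, adjusted p = 6.17e-11). Its RNA log2 fold change at 10 µM was -0.71 (edgeR adjusted p = 0.0904). The third, of 44 codons, had disome CPM of 253, 196, 221 and 133 and fell by 0.75 on the log2 scale (adjusted p = 0.000131), and its RNA log2 fold change was -0.21 (adjusted p = 0.764).

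The next 3 of these regions rose. A region of 49 codons had disome CPM of 63.9 and 80.3 in the DMSO libraries, then 78.1 at 1 µM and 142 at 10 µM (log2 fold change 0.96, SE 0.19, edgeR adjusted p = 3.46e-06), with an RNA log2 fold change of -0.02. A region of 48 codons, merged with one of 49, rose step by step from 39.99 and 49.7 to 90.7 and 154 (log2 fold change 1.76 at 10 µM, adjusted p = 3.36e-18, and 1.00 at 1 µM, adjusted p = 6.22e-05), with an RNA log2 fold change of 0.09. A region of 26 codons had reached most of its rise by 1 µM, with CPM of 41.1, 39.1, 96.8 and 112. For it the step from 1 to 10 µM gave a log2 fold change of 0.21 (adjusted p = 0.619).

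The last 2 of the 8 fell. A region of 20 codons had 224, 311, 240 and 246 disome counts (log2 fold change -0.53, edgeR adjusted p = 0.0359), a call that DESeq2 did not make. A region of 26 codons had CPM of 78.5 and 57.7 in the DMSO libraries, then 46.4 at 1 µM and 28.03 at 10 µM (log2 fold change -1.26, SE 0.23, adjusted p = 8.21e-07). Of the 8, 3 rose, 4 fell and 1 did neither at 10 µM.

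**Figure D3:**
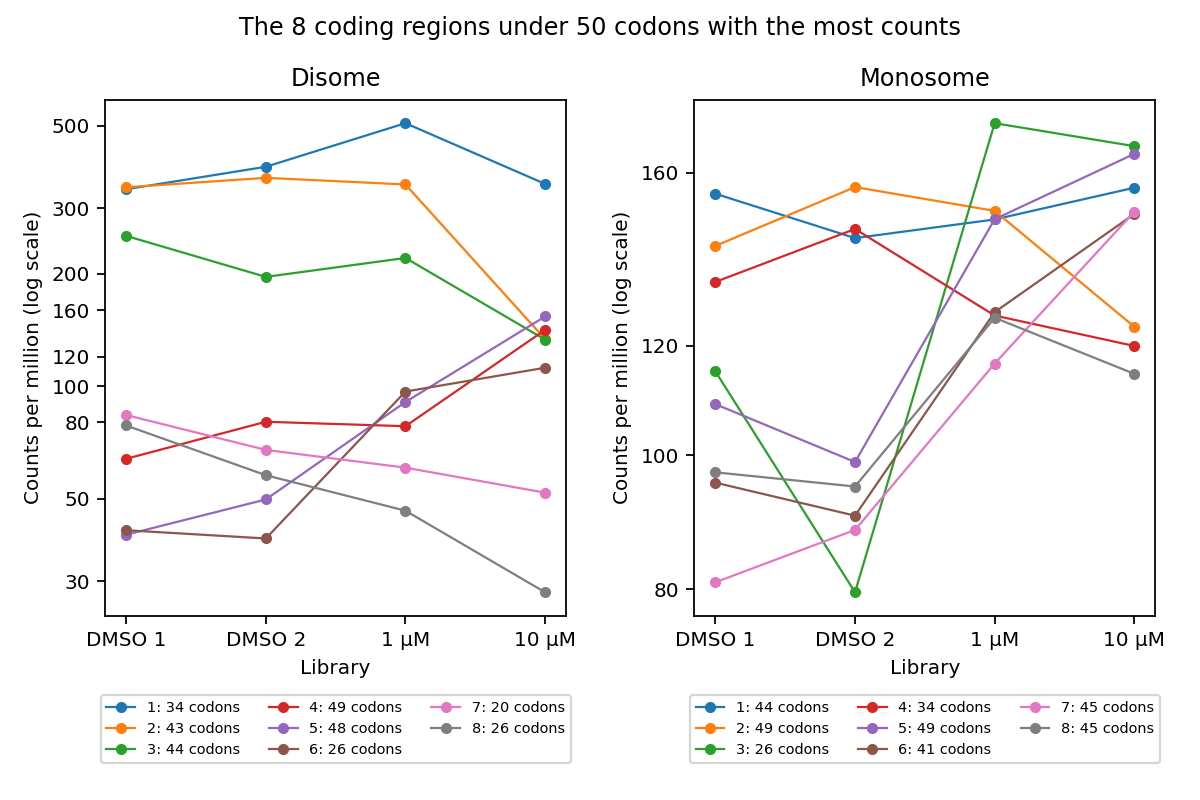
CPM (log axis) in each library for the 8 coding regions under 50 codons with the highest mean CPM, in disome and monosome libraries; lines join the values of 1 region and stand for no time course. In disomes, 3 of the 8 end above and 4 below their DMSO values, and the second (43 codons) drops between 1 and 10 µM.

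At 1 µM fewer disome regions passed the test, again more of them upwards. Of the 427 tested, 45 rose (10.5%) and 8 fell (1.87%), beside 5.39% and 1.68% of all coding regions tested. Of 2602 tested regions of 50 to 99 codons, 273 rose (10.5%) and 33 fell (1.27%). The median log2 fold change of the called short regions was 1.85 and -1.23. Over all 487 regions the median log2 difference was 0.22, and over the 226 with at least 20 DMSO counts it was -0.08, with 27 rises (11.9%) and 8 falls (3.54%) beside 5.74% and 2.04% of all regions with that many DMSO counts. So the share of rises stayed above that of all regions under this minimum, while the median turned. By the same minimum, 213 of 1685 regions of 50 to 99 codons rose (12.6%) and 30 fell (1.78%). DESeq2 gave an adjusted p to 27 of the short regions and called 2 higher (7.41%) and 0 lower, where it called 3.79% and 0.141% of all regions with an adjusted p.

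The step from 1 to 10 µM, tested directly, gave 42 rises (9.84%) and 21 falls (4.92%) on the short regions. The shares were 7.7% and 4.36% over all regions, and 13.6% and 3.92% at 50 to 99 codons. With at least 20 DMSO counts there were 21 rises and 21 falls (9.29% each) on the short regions, beside 7.73% and 5.3% of all such regions. Taken by CPM alone, 160 of the 487 regions (32.9%) had both DMSO libraries below 1 µM and 1 µM below 10 µM, where 22.5% of all regions had this order. The reverse order was found for 65 regions (13.3%), against 19.4%. A 10 µM value over 2-fold above both DMSO libraries was found for 140 regions (28.7%, against 12.9%) and one over 2-fold below both for 38 (7.8%, against 6.58%). At 1 µM, 71 regions (14.6%, against 3.34%) lay over 2-fold above both DMSO libraries and 17 (3.49%, against 1.62%) over 2-fold below. These orders too take in regions that entered through their treated libraries. Among the 226 with at least 20 DMSO counts, 43 (19%, against 20.5% of all such regions) had CPM in order from DMSO to 1 to 10 µM and 51 (22.6%, against 23.3%) had the reverse order. By that minimum 39 regions (17.3%, against 9.9%) lay over 2-fold above both DMSO libraries at 10 µM and 33 (14.6%, against 7.58%) over 2-fold below. At 1 µM these were 17 (7.52%, against 2.06%) and 11 (4.87%, against 1.47%). The 2 DMSO libraries differed from each other over 2-fold, in either direction, for 17 of these 226 regions and for 887 of all 28344. The SD of that difference was 0.54 and 0.43. Whether the 2-fold shares go beyond this wider spread was not tested.

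As a share of each disome library's merged counts, the 487 regions made up 0.367% in DMSO 1 (95% Clopper-Pearson interval 0.36 to 0.374, counting error only) and 0.368% in DMSO 2 (0.363 to 0.374). At 1 µM the share was 0.401% (0.395 to 0.407) and at 10 µM 0.444% (0.438 to 0.45). With 1 treated library a dose, no permutation test of this share can reach a small p. The ratio of the 10 µM share to the mean of DMSO was 1.21. It was 1.05 over regions with at least 20 DMSO counts and 0.88 when only the region with the highest mean CPM of each block of 10 coding rows was kept. The 3 most occupied regions held 25.7% and 26.7% of the short regions' counts with DMSO and 13.2% at 10 µM, and without them the ratio was 1.42. The share of regions of 50 to 99 codons was 4.51% and 4.3% in the DMSO libraries, then 5.05% at 1 µM and 6.2% at 10 µM.

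**Figure D4:**
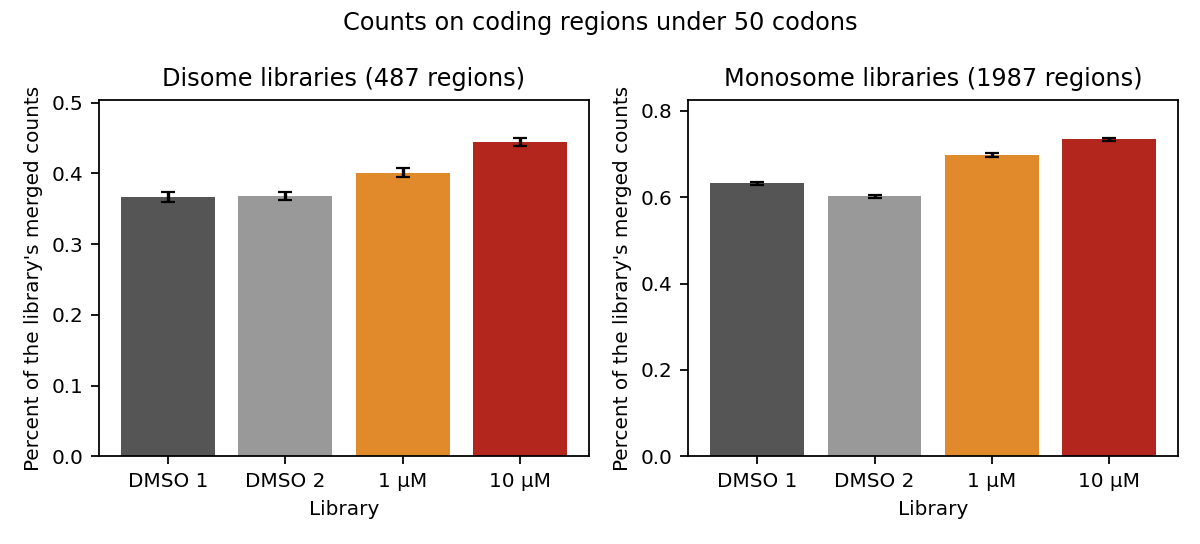
Percent of each library's merged counts that fell on coding regions under 50 codons, in disome (left) and monosome (right) libraries, 1 bar per library, with 95% Clopper-Pearson intervals for counting error. The disome bars stand at 0.367, 0.368, 0.401 and 0.444% and the monosome bars at 0.632, 0.602, 0.697 and 0.734%.

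The called monosome regions had smaller median fold changes than the called disome regions, over another set of regions and in deeper libraries. The DMSO libraries also differed less in monosomes (SD 0.49 over the short regions, against 0.65 in disomes). No test compared the kinds. At 10 µM, 291 of 1800 tested regions rose (16.2%) and 135 fell (7.5%), by edgeR's quasi-likelihood test at an FDR of 0.05. Over all coding regions tested, 16.6% rose and 15.7% fell. The difference between these shares was not tested. The median log2 fold change of the called regions was 0.99 and -0.89. Over all 1987 regions, the median log2 difference was 0.12, against 0.02 over all coding regions and -0.04 for DMSO 2 against DMSO 1. Among the 1469 regions with at least 20 DMSO counts it was 0.08, with 15.3% higher and 9.12% lower, beside 16.6% and 16.5% of all such regions. DESeq2 gave 324 of the short regions an adjusted p and called 22 higher (6.79%) and 14 lower (4.32%), beside 4.36% and 7.5% of all regions with one.

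The monosome classes by length were alike. The median log2 difference at 10 µM was 0.14 below 20 codons, 0.13 at 20 to 29, and 0.12 both at 30 to 39 and at 40 to 49 codons. Regions of 50 to 99 codons gave 0.07, with 14.1% higher and 9.52% lower. On either side of the length limit the median was 0.13 over 581 regions of 45 to 49 codons and 0.04 over 596 of 50 to 54.

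At 1 µM, 58 of the 1800 regions rose in monosomes (3.22%) and 5 fell (0.278%), beside 1.05% and 0.729% of all regions tested. The median log2 fold change of those that rose was 0.74. With at least 20 DMSO counts, 54 rose (3.68%) and 5 fell (0.34%), beside 1.08% and 0.766% of all such regions. Regions of 50 to 99 codons also had more rises than falls at 1 µM. Of 6796 tested, 135 rose (1.99%) and 20 fell (0.294%). With at least 20 DMSO counts, 2.18% of that class rose and 0.328% fell. The median log2 difference over the 1987 regions was 0.13, close to that at 10 µM, and the direct step from 1 to 10 µM gave 58 rises (3.22%) and 57 falls (3.17%), beside 5.79% and 6.34% of all regions. With at least 20 DMSO counts the step gave 46 rises and 53 falls, beside 5.95% and 6.62%. DESeq2 gave an adjusted p to 14 short regions at 1 µM and called 7 of them higher and 0 lower, where it called 6.5% of all regions with an adjusted p higher and 2.81% lower. By CPM, 553 regions (27.8%) had their 1 µM value above both DMSO libraries and above 10 µM, where 19.1% of all regions did. Both DMSO libraries lay below 1 µM and 1 µM below 10 µM for 374 regions (18.8%, against 18.2% of all), and the reverse order was found for 178 (8.96%, against 17.8%). At 10 µM, 97 regions (4.88%, against 2.21%) were over 2-fold above both DMSO libraries and 48 (2.42%, against 1.33%) over 2-fold below both. With at least 20 DMSO counts, 375 of 1469 regions (25.5%, against 18.6%) had 1 µM above both DMSO libraries and above 10 µM. The order from DMSO to 1 to 10 µM was found for 269 (18.3%, against 18.1%) and the reverse for 161 (11%, against 18.8%). By that minimum 35 (2.38%, against 1.68%) lay over 2-fold above both DMSO libraries at 10 µM and 39 (2.65%, against 1.29%) over 2-fold below. Here too the DMSO libraries differed more on the short regions, with an SD of 0.42 against 0.28 over all such regions.

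The monosome share of the short regions was 0.632% (95% Clopper-Pearson interval 0.628 to 0.635) and 0.602% (0.599 to 0.605) in the DMSO libraries, then 0.697% (0.693 to 0.701) at 1 µM and 0.734% (0.731 to 0.737) at 10 µM. Both treated libraries lay above both controls, and the controls themselves differed by more than their counting intervals. The ratio to the mean of DMSO was 1.13 at 1 µM and 1.19 at 10 µM. The monosome share of regions of 50 to 99 codons was 5.72% and 5.61% in the DMSO libraries, then 6.15% at 1 µM and 6.43% at 10 µM.

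Of the 8 short regions with the highest mean monosome CPM, 5 rose, 2 fell and 1 did neither at 10 µM. The first, of 44 codons, had 155, 144, 148 and 156 CPM in the order DMSO 1, DMSO 2, 1 µM and 10 µM, a log2 fold change of 0.07 (edgeR adjusted p = 0.444). A region of 49 codons had 109 and 98.9 CPM in the DMSO libraries, then 148 at 1 µM and 165 at 10 µM (log2 fold change 0.67, adjusted p = 1.92e-16). A region of 45 codons rose at each step, from 80.9 and 88.3 to 116 and 150.0 (log2 fold change 0.82, adjusted p = 3.64e-21, and 0.36 for the step from 1 to 10 µM, adjusted p = 0.000292).

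A monosome region of 26 codons stood higher at both doses, with a log2 step from 1 to 10 µM of -0.06 (edgeR adjusted p = 0.759). It had 115 and 79.6 CPM in the DMSO libraries, then 174 at 1 µM and 167 at 10 µM, and log2 fold changes of 0.84 at 1 µM (SE 0.08, edgeR adjusted p = 1.85e-15) and 0.79 at 10 µM (SE 0.07, adjusted p = 1.42e-16). The DMSO libraries differed from each other by 0.53 on the log2 scale for this region, and DESeq2 did not call it at 10 µM. DESeq2 also left uncalled both falls and 1 of the other rises among these 8. The falls were small: a region of 49 codons had 142, 156, 150 and 124 CPM (log2 fold change -0.27), and one of 34 codons had a log2 fold change of -0.22.

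The largest monosome rises were again on regions with few DMSO counts, which entered through their treated libraries. A region of 34 codons had 1, 2, 3 and 33 monosome counts in the same order of libraries (log2 fold change 4.03, SE 0.67, edgeR adjusted p = 3.41e-07). One of 39 codons had 4, 6, 17 and 59 (log2 fold change 3.21, adjusted p = 3.7e-10), and one of 14 codons 5, 7, 6 and 52 (log2 fold change 2.77, adjusted p = 4.94e-08). The 14-codon region had its change above 1 µM. The strongest falls rested on fewer counts still, such as 13, 10, 8 and 2 on a region of 47 codons.

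Footprints were set beside the mRNA for regions of 40 to 49 codons, since RNA-seq counts omit part of the coding region and say little about shorter ones. In RNA-seq, 2 of 789 tested regions of this length rose at 10 µM (0.253%) and 12 fell (1.52%), beside 0.537% and 0.571% of all regions tested. At 50 to 99 codons 0.143% rose and 2.14% fell. The median log2 difference over the 872 regions of 40 to 49 codons was -0.17, against -0.14 at 50 to 99 codons and 0.00 over all regions. DESeq2 gave an adjusted p to 27 of the 789 and called 0 higher and 3 lower, where it called 0.532% and 0.642% of all regions with one. At 1 µM edgeR called 0 of 789, where 0% of all regions were called, DESeq2 called 0 too and 23 regions had p under 0.05 before adjustment. A region of 44 codons, second by mean RNA CPM, had 2107 and 2903 RNA counts in the DMSO libraries, then 2542 at 1 µM and 998 at 10 µM (log2 fold change -0.97, SE 0.19, edgeR adjusted p = 0.000166). Another region of 44 codons rose in RNA-seq, with 136, 142, 172 and 234 counts (log2 fold change 1.09, adjusted p = 0.0048).

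Of the 272 disome regions of 40 to 49 codons, 252 had at least 20 RNA counts. Over these regions the median 10 µM difference was 0.53 in disomes over the 272 and -0.25 in RNA over the 252. For the 124 that also had at least 20 disome counts with DMSO, the medians were -0.03 and -0.28. Of 80 disome regions that rose and had RNA counts, 1 rose and 5 fell in RNA-seq. Of 17 that fell in disomes, 0 rose and 1 fell in RNA-seq. Pearson's r of the disome and RNA differences at 10 µM was -0.027 over regions, a description across regions that partly share reads. Monosome tables use other identifiers, so monosome and disome values of a region could not be paired.

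Each short region was also set beside the longer region with the most counts within 10 coding rows, which may belong to the same gene or to another. In disomes the short region held a median of 5.9% of that neighbour's counts. The neighbours, with a median of 371 codons, had a median log2 difference of -0.03 at 10 µM, and the median of short region minus neighbour was 0.38. Over the 226 short regions with at least 20 DMSO counts, a minimum that itself selects on DMSO, it was -0.06. The value of 0.38 takes in regions that entered through their treated libraries, and so depends on the choice of regions. Of the 140 short regions that rose, the neighbour rose for 58, fell for 23 and was not called for 59. Of the 36 that fell, it fell for 19, rose for 6 and was not called for 11. With at least 20 DMSO counts, 54 short regions rose, and the neighbour rose for 25, fell for 4 and was not called for 25. By that minimum 35 fell, and the neighbour fell for 18, rose for 6 and was not called for 11. In monosomes the short regions held a median of 3.27% of the neighbour's counts. There the neighbour rose for 82, fell for 77 and was not called for 132 of the 291 that rose, and fell for 67, rose for 17 and was not called for 51 of the 135 that fell. The median of short region minus neighbour was 0.2 in monosomes, and 0.16 with at least 20 DMSO counts. By that minimum the neighbour rose for 62, fell for 64 and was not called for 99 of the 225 monosome regions that rose. Of the 134 that fell, it fell for 67, rose for 17 and was not called for 50. Over all coding regions tested at 10 µM, 20.8% rose and 14.9% fell in disomes, and 16.6% and 15.7% in monosomes. The share called among the neighbours of all short regions was not counted, so agreement with the neighbour was not set against it.

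Few short regions had the highest mean CPM of a fixed block of coding rows. When coding rows were cut into blocks of 10 and the region with the highest mean CPM of each block was kept and refitted, 10 short regions remained in disomes and 19 in monosomes, 2 of the latter with identical counts. The choice took in the treated libraries, so a rise can be set partly by it. Of the 10, 3 rose and 1 fell at 10 µM (all regions kept in that fit: 22% and 15.4%). Their median log2 fold change was 0.01. At 1 µM, 2 rose and 0 fell, beside 6.31% and 1.43% of all regions kept. No longer row of their block exceeds these regions in mean CPM, but a row just across the block's boundary can. Within 10 rows on either side, only 1 short disome region and 3 short monosome regions lacked a longer row with counts at least as high in all 4 libraries.

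The 10 leading disome regions went separate ways. One of 44 codons had 34 and 49 counts in the DMSO libraries, then 90 at 1 µM and 119 at 10 µM (log2 fold change 1.21, edgeR adjusted p = 0.000392, and 1.00 at 1 µM, adjusted p = 0.0174). One of 47 codons had 3, 9, 32 and 30 counts in the same order (log2 fold change 2.01 at 10 µM, adjusted p = 0.00272). The third rise was the region of 20 codons described above. It and the region of 47 codons had fewer than 20 DMSO counts and entered through their treated libraries, so their rises are no independent support. The fall was on a region of 45 codons with 140, 206, 178 and 103 counts (log2 fold change -1.07, adjusted p = 0.000692). A region of 46 codons with as many footprints, 130, 210, 176 and 194, had a log2 fold change of -0.12.

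Of the 19 leading monosome regions, 3 rose and 2 fell at 10 µM, beside 21.8% and 20.7% of all regions kept, and 1 rose and 0 fell at 1 µM, beside 1.73% and 1.04%. The rises were on regions of 46 codons (172, 192, 186 and 494 counts, log2 fold change 1.17, edgeR adjusted p = 2.05e-07), 33 codons (119, 189, 125 and 310 counts, 0.74) and 37 codons (12, 12, 7 and 32 counts, 1.14). The falls were on regions of 45 codons (831, 969, 653 and 738 counts, -0.56, adjusted p = 1.34e-05) and 42 codons (69, 62, 34 and 39 counts, -1.02). The median log2 fold change of the 19 was 0.05 at 10 µM and 0.02 at 1 µM.

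**Figure D5:**
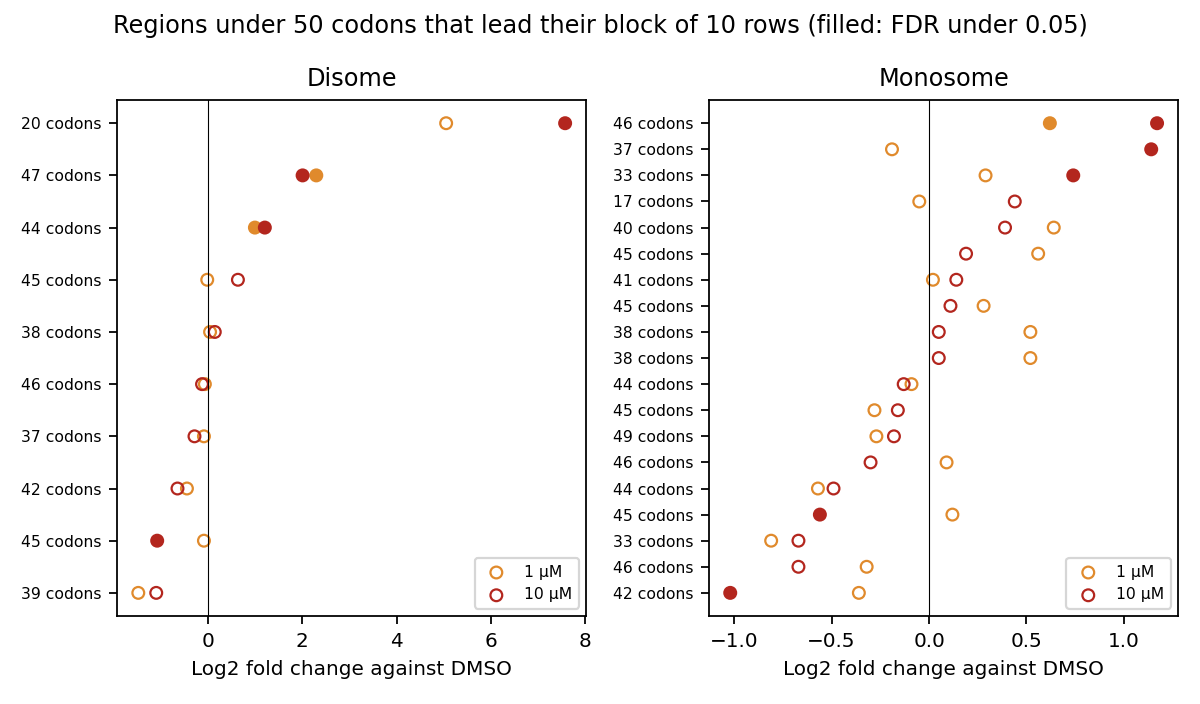
Log2 fold change against DMSO (horizontal axis) of each coding region under 50 codons that has the highest mean CPM of its block of 10 coding rows, at 1 µM (orange) and 10 µM (red), labelled by length; filled points have an FDR under 0.05. Points lie on both sides of 0, with 3 higher and 1 lower of 10 in disomes and 3 higher and 2 lower of 19 in monosomes at 10 µM; the fitted value of the 20-codon region, at 0 in both DMSO libraries, depends on the prior count of the fit.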

How the data were processed

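The authors deposited raw read counts per transcript, 1 table per library, with a length column and no normalization. Per the submitters' processing notes the build was hg38 and the tools CASAVA 1.8 and STAR 2.7.0a; the counting tool, annotation release and treatment of reads with several matches are not given in the sources used here. The length in the disome tables was taken as the coding length in codons, as inferred from the values, with 10 added in monosome and 20 in RNA-seq tables. If reads were counted once per isoform, library totals exceed the number of reads. Neighbouring rows are therefore not independent.

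Each kind of library was fitted alone over its whole table with edgeR 4.0.16 in R 4.3.3 (TMM scaling, filterByExpr, quasi-likelihood test, Benjamini-Hochberg adjustment over all rows tested, FDR 0.05). With 3 groups over 4 libraries 1 residual degree of freedom remained, which means that the spread of the DMSO pair stood in for that of each single treated library. SEs were derived from the fold change and its F statistic. TMM makes rises and falls relative to the other regions of a library. DESeq2 1.42.0 was an alternative. Regions and lists were chosen with earlier results of these data known. Regions described singly were the 8 with the highest mean CPM and those with the highest and lowest fold changes among regions called at 10 µM, with exceptions stated; the 4 identifiers printed were picked after their values were seen. A planned list of genes for very short proteins could not be matched.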

Additional observations from a re-analysis of the deposited data

How the results depend on the processing

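By edgeR, 176 disome regions were called at 10 µM, 53 at 1 µM and 63 in the step between doses, and in monosomes 426, 63 and 115. In RNA-seq 14 regions of 40 to 49 codons were called at 10 µM. DESeq2, which gave many short regions no adjusted p, called 27, 2 and 6 in disomes, 36, 7 and 6 in monosomes and 3 in RNA-seq. With 1 transcript per block of 10 rows, which by construction keeps few short regions, the counts were 4, 2 and 1 in disomes, 5, 1 and 2 in monosomes and 0 in RNA-seq. With at least 20 DMSO counts, 89 and 35 disome regions were called at 10 and 1 µM. This minimum was added after seeing the data, leaves fewer regions and selects on the DMSO side of the difference. Under it the disome median differences turned from 0.41 to -0.19 and from 0.22 to -0.08. DESeq2's size factors, no filter on low counts, a minimum of 50 counts and leaving out regions identical to a longer one kept these counts within 1.5 times.

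Against each DMSO library alone, the disome median differences were 0.36 and 0.41 at 10 µM. Calls without a DMSO library were made in a joint fit of disome and RNA-seq libraries, which called 170 disome regions at 10 µM and 54 at 1 µM; without either DMSO replicate these became 131 to 148 and 31 to 33. The ratio of the short regions' share to DMSO in disomes (1.21 at 10 µM, 1.09 at 1 µM) was 1.31 and 1.13 without merging rows, 0.88 and 0.998 with 1 transcript per block, and 1.05 and 1.03 with at least 20 DMSO counts. Without the 3 most occupied regions it was 1.42 at 10 µM. In monosomes the 10 µM ratio of 1.19 became 1.05 with 1 transcript per block. The cause of these differences was not tested. DESeq2 gave an adjusted p at 10 µM to 21 of 40 footprint regions chosen by the rule for single regions, and 5 of these lost their call. No paired analysis was possible because each dose has 1 library, so the groups compared share fewer than 2 replicate numbers. Disome depth is a limit: 227 of the 487 short disome regions had 50 or more summed counts.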
